A study of Mus musculus with 6 samples.

Results

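The genes described here are those of glycolysis and of the transcriptional response to hypoxia, 35 genes that were listed by name for their roles, at a time when earlier results of these data were known. Of these, 33 had a row of the array naming them alone, out of 30102 genes named in that way, and Gpi1 and Eno1 had none. All 33 had a mean log2 signal over the 6 arrays above background, a level of 5.99 set by chemosensory receptor genes. Total RNA was taken from bone marrow-derived mast cells of the mouse (BMMCs), grown as a primary culture from C57BL/6J marrow in interleukin 3 and a stem cell factor supernatant for 6 weeks, and was measured on whole-transcript Affymetrix arrays. The ionomycin group received 1 µg/mL of this calcium ionophore in Tyrode's buffer for 1 h, was washed, and spent 3 h in culture medium, so its RNA is from 4 h after activation began. The naive group received the buffer alone for 1 h and the same 3 h in medium. For both groups the buffer held 5.5 mM glucose and the medium 1 mM sodium pyruvate, and no sample carries a label for its oxygen supply. Each group had 3 arrays, and nothing in the labels says that they came from separate cultures or animals, so p-values measure only how far these samples differ, which can be a technical spread.

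Glycolysis splits glucose into pyruvate in the cytosol. Lactate dehydrogenase and lactate export then let the pathway run without mitochondrial respiration. The hypoxia-inducible factors (HIFs) pair an oxygen-labile alpha subunit with ARNT. With oxygen present, prolyl hydroxylases mark the alpha subunit for destruction, and without it the stabilised pair binds DNA at the letters ACGTG or GCGTG and raises glucose transporters, glycolytic enzymes and genes such as Bnip3 and Egln3. Control of HIF-1 acts largely on the protein, which these arrays do not measure. Mast cells are known to draw on glycolysis for degranulation and cytokine production.

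The cells carried their label in the level of mast cell marker genes, of which 11 of 12 were measured, all above background. Among them were Cpa3 (mast cell carboxypeptidase) and Fcer1a (the alpha chain of the IgE receptor). Measured markers of other cells also passed background: 10 of 10 macrophage, 6 of 8 neutrophil, 5 of 6 lymphocyte and 4 of 4 erythroid. For stromal markers it was 4 of 5 and for dendritic markers 1 of 6. Mean levels of the mast cell list were 12.53 to 12.58 on ionomycin arrays and 12.56 to 12.59 on naive arrays. Those of macrophage, neutrophil, dendritic, lymphocyte, erythroid and stromal markers were 5.55 to 7.71 on ionomycin arrays and 5.41 to 7.56 on naive arrays. Replicate 1 stood apart in both groups. It lay at -21.2 (ionomycin) and -48.0 (naive) on the first principal component of all genes, with 52.6% of the variance, and the other 4 arrays lay between 13.0 and 21.9. Differences between the groups are therefore also given without replicate 1 for the genes that rest most on it.

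At 4 h after ionomycin none of the 33 genes passed the test between the groups (limma over 30102 genes, Benjamini-Hochberg adjusted p under 0.05), in either direction. Over all genes the same test called 0.289% higher and 0.0598% lower, so a count of 0 among 33 genes does not stand out. The smallest adjusted p was 0.207, for the hexokinase gene Hk1. Before adjustment 4 genes had p under 0.05, Ndrg1 and Epas1 as higher and Hk1 and Ldha as lower, against 10.2% and 5.44% of all genes. These 4 were also the genes whose arrays did not overlap between the groups, against 18.9% of all genes without overlap and higher, and 7.31% without overlap and lower. The median gene of the 33 was 0.12 higher on the log2 scale in the ionomycin group, and the median of all genes was 0.05 higher. The spread within the naive group was wide: the median SD of the 33 genes was 0.14 among ionomycin arrays and 0.44 among naive arrays, against 0.09 and 0.11 over all genes. The SD was larger in the naive group for 31 of the 33, against 18287 of all 30102 genes. Only 19200 of all genes were above background, so these SDs are not matched for signal level.

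**Figure D1:**
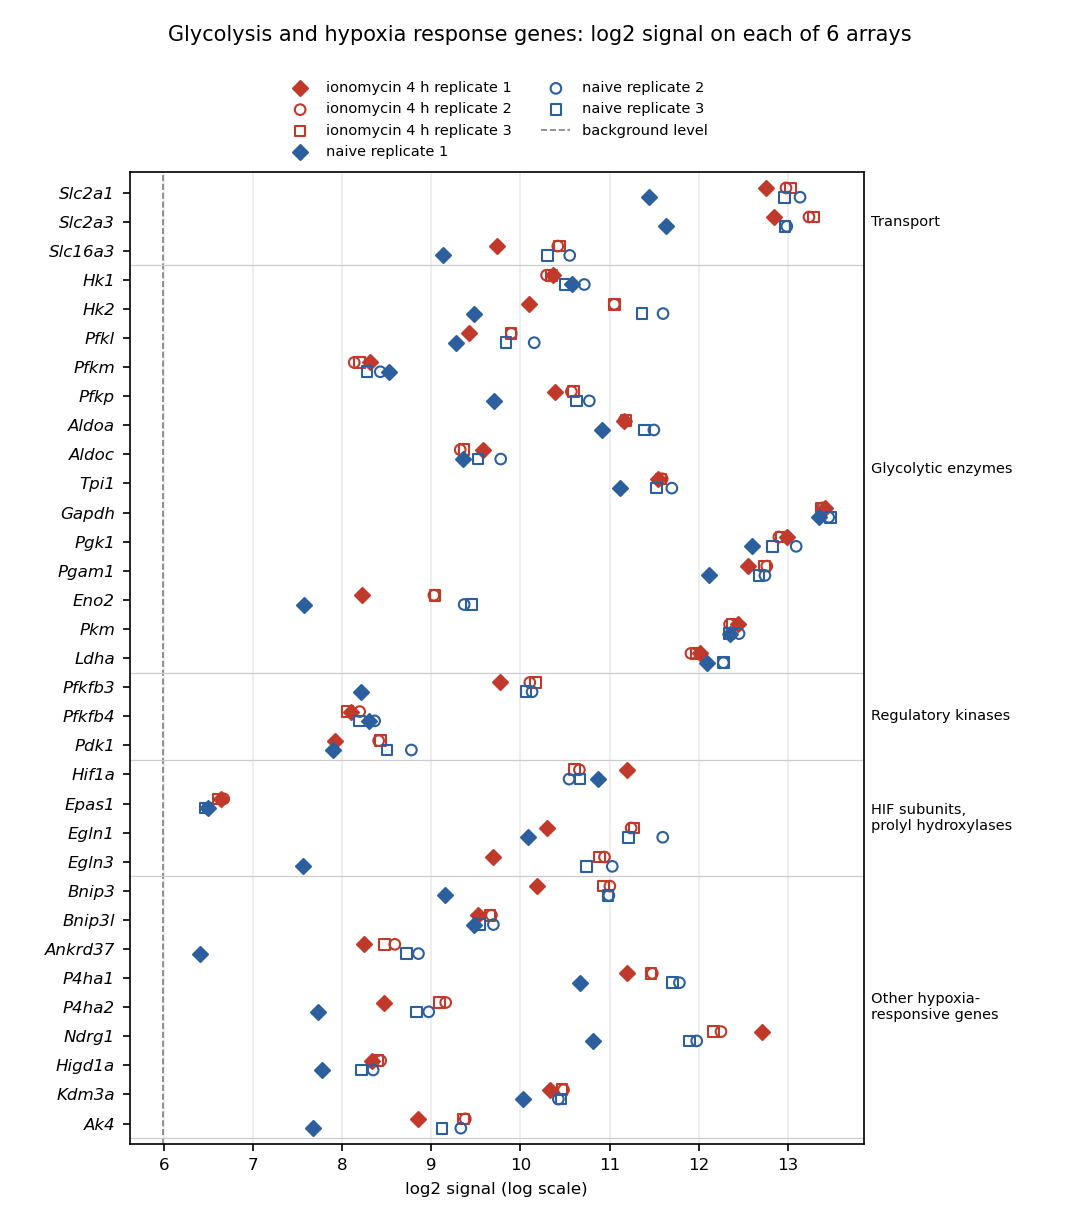
Log2 signal (horizontal axis) of the 33 measured genes, grouped by role, on the 3 ionomycin arrays (red) and the 3 naive arrays (blue); filled diamonds are replicate 1, open circles replicate 2, open squares replicate 3, and the dashed line is the background level of 5.99. For Egln3 the naive replicate 1 array is at 7.56 and the naive replicates 2 and 3 are at 11.03 and 10.74.

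The transporters showed the shape that recurred through the list. The 3 values of a group are log2 signals of replicates 1, 2 and 3, in that order, and a difference of 1 is a 2-fold change. Slc2a1, the glucose transporter GLUT1, was at 12.76, 12.98 and 13.03 in ionomycin arrays and at 11.44, 13.14 and 12.96 in naive arrays. Slc2a3, the high-affinity transporter GLUT3, was at 12.85, 13.24 and 13.29 in ionomycin and 11.63, 12.99 and 12.97 in naive arrays. Slc16a3, the lactate exporter MCT4, was at 9.74, 10.42 and 10.44 in ionomycin and 9.13, 10.55 and 10.30 in naive arrays. In each case naive replicate 1 was the lowest of the 6 arrays, and ionomycin replicate 1 the next. The group differences (ionomycin minus naive, log2 ± moderated SE) were 0.41 ± 0.44 for Slc2a1, 0.59 ± 0.38 for Slc2a3 and 0.21 ± 0.40 for Slc16a3, with limma adjusted p = 0.648, 0.446 and 0.804. Without both replicate 1 arrays the differences were -0.05, 0.28 and 0.00, so that of Slc2a1 changed sign.

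Among the enzymes, both hexokinases that trap glucose in the cell were measured and differed in pattern. Hk2, the inducible hexokinase, was at 10.10, 11.05 and 11.05 in ionomycin and 9.48, 11.60 and 11.36 in naive arrays, and Hk1, the constitutive one, at 10.36, 10.29 and 10.35 in ionomycin and 10.58, 10.72 and 10.51 in naive arrays. Replicate 1 was low for Hk2 in both groups, whereas for Hk1 all 3 ionomycin arrays were below all 3 naive arrays, with a group difference of -0.27 ± 0.07 (limma adjusted p = 0.207). The group difference of Hk2 was -0.08 ± 0.59 (limma adjusted p = 0.953) and was -0.43 without both replicate 1 arrays. Of the phosphofructokinase subunits, which catalyse the committed step, Pfkp was at 10.39, 10.57 and 10.60 in ionomycin and 9.70, 10.77 and 10.63 in naive arrays. Pfkl was at 9.43, 9.90 and 9.89 in ionomycin and 9.28, 10.15 and 9.84 in naive arrays, and Pfkm, the muscle-type subunit, at 8.31, 8.14 and 8.19 in ionomycin and 8.53, 8.43 and 8.28 in naive arrays. Pfkp and Pfkl had their lowest naive value in replicate 1, and Pfkm its highest.

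Eno2, an enolase also known from neurons, had the widest naive spread of the enzymes after Hk2, with 8.22, 9.03 and 9.04 in ionomycin and 7.57, 9.37 and 9.45 in naive arrays. Its groups differed by -0.03 ± 0.54 with all arrays (limma adjusted p = 0.977) and by -0.37 without both replicate 1 arrays. In that fit Eno2 was the only one of the 33 to pass, as lower (limma adjusted p = 0.0498), against 1.43% of all genes lower and 1.41% higher. Ldha, which turns pyruvate into lactate, was at 12.02, 11.91 and 11.97 in ionomycin and 12.10, 12.28 and 12.28 in naive arrays. Its 3 ionomycin arrays lay below its 3 naive arrays (-0.25 ± 0.07, limma adjusted p = 0.225). Its replicate 1 departed little from the mean of replicates 2 and 3, by 0.08 in ionomycin and -0.18 in naive arrays.

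The arrays of the other 7 measured enzymes overlapped between the groups. Aldoa, an aldolase, was at 11.16, 11.16 and 11.19 in ionomycin and 10.92, 11.50 and 11.39 in naive arrays, and Aldoc, another aldolase, at 9.58, 9.32 and 9.37 in ionomycin and 9.36, 9.78 and 9.52 in naive arrays. Tpi1, triosephosphate isomerase, was at 11.55, 11.59 and 11.58 in ionomycin and 11.12, 11.70 and 11.53 in naive arrays, with naive replicate 1 the lowest array. Gapdh, the glyceraldehyde phosphate dehydrogenase often used as a reference gene, was at 13.42, 13.39 and 13.37 in ionomycin and 13.35, 13.46 and 13.48 in naive arrays, a difference of -0.04 ± 0.06. Pkm, pyruvate kinase, was likewise nearly level at 12.44, 12.35 and 12.37 in ionomycin and 12.35, 12.45 and 12.34 in naive arrays. For Pgk1, phosphoglycerate kinase, the values were 12.99, 12.90 and 12.93 in ionomycin and 12.59, 13.09 and 12.83 in naive arrays, and for Pgam1, phosphoglycerate mutase, 12.55, 12.76 and 12.74 in ionomycin and 12.11, 12.74 and 12.68 in naive arrays. Both had naive replicate 1 as the lowest of the 6 arrays. Pgk1 had 2 rows naming it alone, with group differences of 0.10 and 0.12. The brighter one, used here, has an identifier of chromosome 12, and the other one of the X, where Pgk1 lies. The values given may therefore be those of a copy of the gene, which was not tested. Both Gapdh and Pgam1 have near-identical copies whose transcripts a row may share. Over the 14 measured enzymes the difference between the groups ran from -0.27 to 0.17, with 5 above 0 and 9 below.

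The regulatory kinases set the flux at 2 points. Pfkfb3 and Pfkfb4 make fructose 2,6-bisphosphate, the activator of phosphofructokinase, and Pdk1 turns off pyruvate dehydrogenase so that pyruvate is kept from the mitochondrion. Pfkfb3 was at 9.77, 10.11 and 10.17 in ionomycin and 8.22, 10.13 and 10.06 in naive arrays, a difference of 0.54 ± 0.51 (limma adjusted p = 0.598) that was 0.04 without both replicate 1 arrays. Pdk1 was at 7.92, 8.41 and 8.43 in ionomycin and 7.90, 8.78 and 8.51 in naive arrays, with replicate 1 the lowest array in both groups and almost equal between them. Pfkfb4 was at 8.10, 8.20 and 8.06 in ionomycin and 8.30, 8.36 and 8.19 in naive arrays and showed no such gap.

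Of the HIF genes, those for the alpha subunits and those for the prolyl hydroxylases differed in pattern. Hif1a, the widespread alpha subunit, was at 11.19, 10.66 and 10.61 in ionomycin and 10.87, 10.55 and 10.67 in naive arrays, so replicate 1 was the highest array of each group. A second row at this locus, whose annotation also names Gm15283, was not used and had replicate 1 as the lowest array of each group, with 7.96, 8.12 and 8.09 in ionomycin and 7.38, 8.33 and 8.29 in naive arrays. Epas1, which encodes HIF-2 alpha, lay near background at 6.64, 6.67 and 6.61 in ionomycin and 6.50, 6.49 and 6.47 in naive arrays, with all 3 ionomycin arrays above all 3 naive arrays (0.15 ± 0.05, limma adjusted p = 0.269). Egln1, the prolyl hydroxylase PHD2 that limits HIF-1 in most cells, was at 10.29, 11.24 and 11.27 in ionomycin and 10.08, 11.60 and 11.21 in naive arrays. Egln3, the hypoxia-inducible hydroxylase PHD3, was at 9.69, 10.94 and 10.89 in ionomycin and 7.56, 11.03 and 10.74 in naive arrays. Both hydroxylase genes had replicate 1 as the lowest array of each group. The group difference of Egln3 was 0.73 ± 0.95 (limma adjusted p = 0.708), with an SD of 0.71 among ionomycin arrays and 1.93 among naive arrays, and it was 0.03 without both replicate 1 arrays.

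The 9 other hypoxia-responsive genes all had naive replicate 1 as the lowest of the 6 arrays, against 42.9% of all genes. Ankrd37, an ankyrin repeat gene named among HIF-1 targets, was at 8.24, 8.59 and 8.47 in ionomycin and 6.40, 8.86 and 8.72 in naive arrays. Bnip3, a mitophagy receptor, was at 10.19, 11.00 and 10.93 in ionomycin and 9.16, 10.99 and 10.98 in naive arrays, and its relative Bnip3l at 9.52, 9.67 and 9.66 in ionomycin and 9.48, 9.70 and 9.55 in naive arrays, where the 6 arrays differed far less. For Ankrd37 and Bnip3 all other arrays lay above naive replicate 1 by over 1 log2 unit, and their group differences were 0.44 ± 0.64 and 0.33 ± 0.53 (limma adjusted p = 0.738 and 0.765). Ak4, a mitochondrial adenylate kinase, was at 8.85, 9.38 and 9.36 in ionomycin and 7.67, 9.33 and 9.12 in naive arrays. The collagen prolyl hydroxylase subunits followed, P4ha1 with 11.20, 11.48 and 11.46 in ionomycin and 10.66, 11.78 and 11.70 in naive arrays, and P4ha2 with 8.47, 9.16 and 9.09 in ionomycin and 7.73, 8.97 and 8.84 in naive arrays. Higd1a, a mitochondrial protein gene, was at 8.33, 8.43 and 8.39 in ionomycin and 7.78, 8.35 and 8.22 in naive arrays, and Kdm3a, a histone demethylase, at 10.33, 10.48 and 10.47 in ionomycin and 10.02, 10.43 and 10.45 in naive arrays. For 7 of the 9 genes, all but Ndrg1 and Higd1a, the ionomycin replicate 1 array was the next lowest. Group differences of the 9 genes ran from -0.00421 (P4ha1) to 0.81 (Ndrg1), with 8 above 0 and none past the test. Without both replicate 1 arrays the differences were -0.26 for Ankrd37, -0.27 for P4ha1 and -0.02 for Bnip3. They were 0.15 for Ak4, 0.22 for P4ha2 and 0.27 for Ndrg1.

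Ndrg1, a stress and hypoxia-induced gene also known from mast cell maturation, departed from that shape. It was at 12.71, 12.25 and 12.17 in ionomycin and 10.82, 11.98 and 11.89 in naive arrays, so that replicate 1 was the highest ionomycin array and the lowest naive array. All 3 ionomycin arrays were above all 3 naive arrays, with a group difference of 0.81 ± 0.33, or 1.76-fold, at an adjusted p of 0.317 by limma. The difference was 1.89 between the replicate 1 arrays, 0.27 between replicates 2 and 0.27 between replicates 3.

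Taken by replicate number, the difference between ionomycin and naive depended on which pair was read. Between the replicate 1 arrays it was above 0 for 29 of the 33 genes, with a median of 0.43 and a largest value of 2.13 (Egln3). Between replicates 2 it was above 0 for 10 genes, with a median of -0.13, and between replicates 3 for 18 genes, with a median of 0.04. The same medians over all genes were 0.08, 0.05 and 0.03. Of all 30102 genes, 19768 were above 0 between replicates 1, 18191 between replicates 2 and 17041 between replicates 3. Between replicates 1, 15 genes differed by more than 0.5 upward and 8 of them by more than 1, against 1391 and 400 of all genes. Between replicates 2 only Hk2 was past 0.5 in either direction, as lower (-0.55), and between replicates 3 none was. Of all genes, 1545 were past 0.5 between replicates 2 and 775 between replicates 3. The 4 genes Hk1, Pfkm, Ldha and Pfkfb4 were lower in ionomycin at all 3 numbers, and 8 genes were higher at all 3. Of all 30102 genes, 5045 were lower and 10773 higher at all 3, so neither count stands out. Without naive replicate 1 alone, 14 genes changed from above 0 to below 0 and the median of the 33 was -0.14; Egln3 was at -0.38. Without both replicate 1 arrays the median of the 33 genes was -0.05, against 0.04 over all genes.

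**Figure D2:**
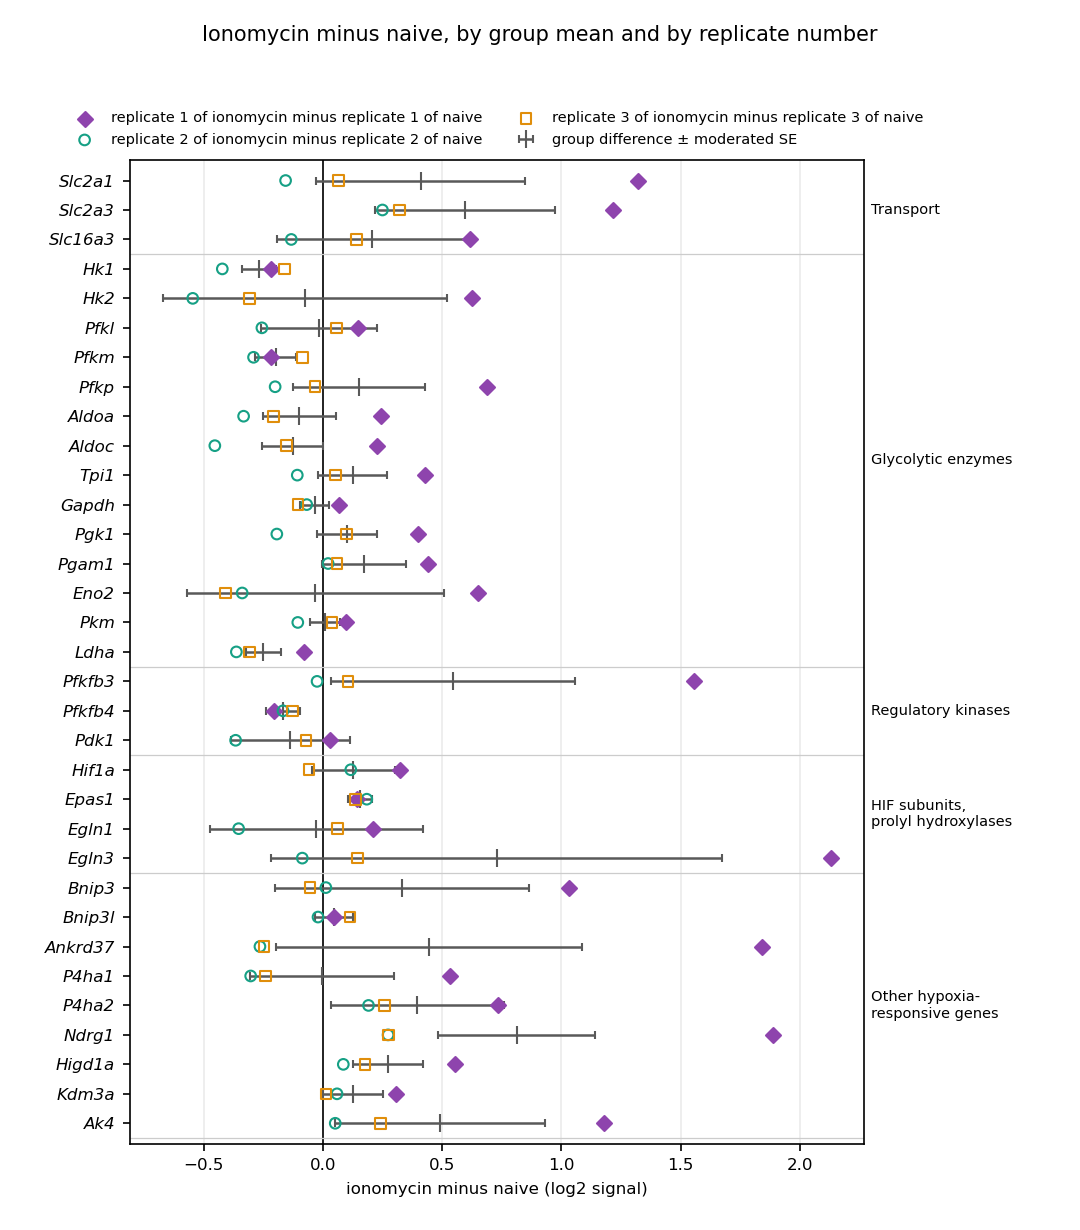
Ionomycin minus naive in log2 signal (horizontal axis) for each of the 33 genes: grey lines are the difference of group means with its moderated SE, and symbols are the differences within replicate 1 (filled diamonds), 2 (circles) and 3 (squares). The replicate 1 differences reach 2.13 for Egln3 and 1.89 for Ndrg1, while those of replicates 2 and 3 stay between -0.55 and 0.32.

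Replicate 1 was then set against the mean of replicates 2 and 3 within each group. This is a description with 1 array on one side and carries no test. Replicate 1, like the genes and lists, was picked out with earlier results of these data known. The shares set beside all genes therefore describe these arrays and are not independent support. What distinguishes replicate 1 is not given in the labels and was not tested, and fewer cells of a type cannot be told apart from less RNA per cell in these bulk samples. Replicate 1 was below the mean of replicates 2 and 3 for 24 of the 33 genes in the ionomycin group and for 29 in the naive group. Of all 30102 genes it was below for 17524 in the ionomycin group and for 19610 in the naive group. It was the lowest array for 22 genes in the ionomycin group, against 47.3% of all genes, and for 27 genes in the naive group, against 54.4%. By more than 1.5-fold it was lower for 7 genes in the ionomycin group, against 0.914% of all genes, and for 18 genes in the naive group, against 2.98%. The 7 genes were low by that margin in both groups, against 0.635% of all genes: Slc16a3, Hk2, Eno2, Egln1, Egln3, Bnip3 and P4ha2. None of the 33 was more than 1.5-fold higher in replicate 1 of both groups, against 1.95% of all genes. All 33 were above background but only 19200 of all 30102 genes were. The shares of all genes, here and below, are not matched for signal level. P4ha2 was just inside the 1.5-fold limit in the ionomycin group (-0.66), and Ak4 just outside (-0.52).

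The drop on naive replicate 1 was the deepest for Egln3. Its replicate 1 was 2.34-fold below the mean of replicates 2 and 3 in ionomycin arrays (-1.22 on the log2 scale) and 10.0-fold below it in naive arrays (-3.33), the lowest naive value of all 30102 genes. Ankrd37, the third lowest of all genes in the naive group, was 1.22-fold below in ionomycin and 5.23-fold below in naive arrays. Hk2 was 1.93-fold below in ionomycin and 4.01-fold below in naive arrays, and ranked number 11 from the bottom in the naive group. In all, 4 of the 33 genes were among the 100 lowest genes on this measure in the ionomycin group, and 8 of the 33 among the 100 lowest in the naive group. The next were Pfkfb3 (1.29-fold below in ionomycin and 3.68-fold in naive arrays), Eno2 (1.76-fold in ionomycin and 3.58-fold in naive arrays) and Bnip3 (1.71-fold in ionomycin and 3.56-fold in naive arrays). Slc2a1 was 1.19-fold below in ionomycin and 3.06-fold below in naive arrays, and Ak4 1.44-fold in ionomycin and 2.94-fold in naive arrays.

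For the 33 genes replicates 2 and 3 differed by at most 0.13 in the ionomycin group and at most 0.38 in the naive group. The median gap was 0.03 in ionomycin and 0.14 in naive arrays, against 0.07 and 0.09 over all genes. The departure of replicate 1 was larger in the naive than in the ionomycin group for 28 of the 33, against 17974 of all 30102 genes. For 20 genes the 6 arrays ran in the order of naive replicate 1, ionomycin replicate 1, then the other 4, against 11.6% of all genes. Across the 33 genes the departures of replicate 1 in the 2 groups had a Pearson's r of 0.77 and a Spearman's rho of 0.81. Over all genes these were 0.71 and 0.53; genes are not independent replicates, and all points share the same arrays. Hif1a was above the other arrays of its group in replicate 1 (0.56 in ionomycin and 0.26 in naive arrays). Replicate 1 was the highest ionomycin array and the lowest naive array for Ndrg1 (0.50 in ionomycin and -1.12 in naive arrays), and with smaller departures for Aldoc (0.24 in ionomycin and -0.29 in naive arrays), Pgk1 (0.08 in ionomycin and -0.37 in naive arrays), Gapdh and Ldha. Hk1, Pfkm, Gapdh, Pkm, Ldha, Pfkfb4, Epas1 and Bnip3l were all within 0.2 of the mean of replicates 2 and 3 in both groups.

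**Figure D3:**
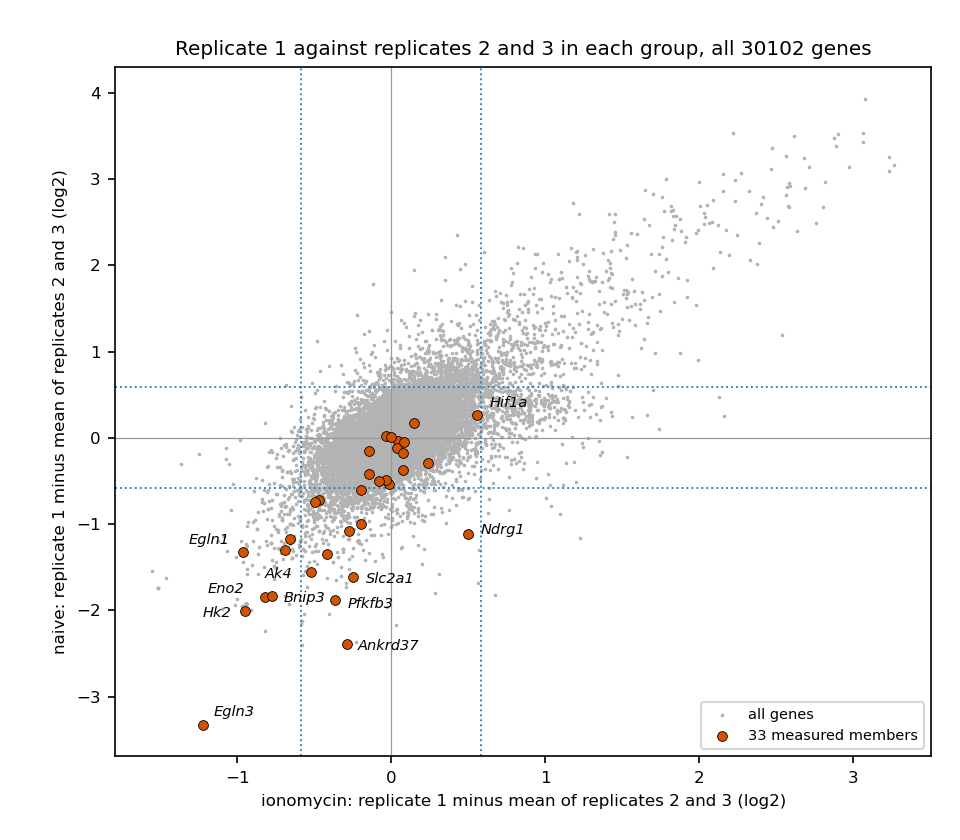
Replicate 1 minus the mean of replicates 2 and 3 in log2 signal, in the ionomycin group (horizontal axis) and the naive group (vertical axis), for all 30102 genes (grey) and the 33 measured genes (orange); dotted lines mark 1.5-fold. Egln3 lies lowest, at -1.22 in ionomycin and -3.33 in naive arrays, and Ndrg1 at 0.50 in ionomycin and -1.12 in naive arrays is right of zero and below it.

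Promoters are shown because HIFs read a short core sequence and the 35 genes were listed in part for their roles in the hypoxia response. Whether HIFs bear on the replicate 1 difference was not tested. RefSeq promoters (GRCm38.p6, 250 bases before to 50 after the annotated start, in the gene's own orientation) were at hand for 31 of the 35 genes. The letters ACGTG or GCGTG, on either strand, were in at least 1 promoter of 28 of these 31 genes (90.3%), against 46.7% of 27025 genes in the table. ACGTG alone was found in 22 genes (71.0%, against 21.8%) and GCGTG in 21 (67.7%, against 35.2%). The palindrome CACGTG, which contains ACGTG and is also the letters of an E-box, was in 6 genes (19.4%, against 8.09%). Both cores hold a CpG, and the promoters of these genes had a median of 23 CpG and 64.7% G or C, against 7 CpG and 52.7% over all promoters. These genes also had more listed promoters per gene, 49 for 31 genes against 32851 for 27025. The shares were not matched for either. The core was in 15 of 16 genes whose naive replicate 1 was more than 1.5-fold low and in 12 of 13 other measured genes. With the core in 28 of the 31 genes, these shares had little room to differ, so no conclusion is drawn from them.

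The 5 genes with 1 listed promoter and the largest drop on naive replicate 1 are printed here. Letters are in lower case, with every ACGTG or GCGTG of either strand in capitals. Ldha follows as a gene whose replicate 1 departed little from the other arrays of its group. Egln3 lies on the minus strand at chr12:54203825-54204124 and has 1 such core, starting 229 bases upstream of the annotated start. Ankrd37 (minus strand, chr8:45999801-46000100) has 4 cores, the nearest starting 6 bases upstream. Hk2 (minus strand, chr6:82774405-82774704) has 2, Eno2 (minus strand, chr6:124769624-124769923) has none in this window and Bnip3 (minus strand, chr7:138909457-138909756) has 5. The first listed promoter of Ldha (plus strand, chr7:46845554-46845853) has 7, counting overlapping matches of both strands.
Egln3: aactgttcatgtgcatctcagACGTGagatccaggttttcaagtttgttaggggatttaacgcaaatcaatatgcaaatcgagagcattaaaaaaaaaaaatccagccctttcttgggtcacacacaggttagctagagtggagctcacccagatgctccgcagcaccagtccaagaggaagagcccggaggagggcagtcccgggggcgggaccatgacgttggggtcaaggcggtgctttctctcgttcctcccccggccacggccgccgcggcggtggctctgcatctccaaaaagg
Ankrd37: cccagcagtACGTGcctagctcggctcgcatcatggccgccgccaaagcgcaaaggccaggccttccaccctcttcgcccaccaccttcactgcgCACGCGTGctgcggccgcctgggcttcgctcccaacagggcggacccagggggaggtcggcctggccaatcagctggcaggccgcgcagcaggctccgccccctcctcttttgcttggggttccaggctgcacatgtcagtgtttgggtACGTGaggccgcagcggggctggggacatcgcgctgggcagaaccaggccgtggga
Hk2: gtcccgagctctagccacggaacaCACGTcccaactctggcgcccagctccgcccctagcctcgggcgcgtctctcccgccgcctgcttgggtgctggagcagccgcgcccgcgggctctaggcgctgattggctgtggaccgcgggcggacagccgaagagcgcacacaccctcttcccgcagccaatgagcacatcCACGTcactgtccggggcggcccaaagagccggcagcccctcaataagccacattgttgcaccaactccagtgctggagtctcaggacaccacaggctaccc
Eno2: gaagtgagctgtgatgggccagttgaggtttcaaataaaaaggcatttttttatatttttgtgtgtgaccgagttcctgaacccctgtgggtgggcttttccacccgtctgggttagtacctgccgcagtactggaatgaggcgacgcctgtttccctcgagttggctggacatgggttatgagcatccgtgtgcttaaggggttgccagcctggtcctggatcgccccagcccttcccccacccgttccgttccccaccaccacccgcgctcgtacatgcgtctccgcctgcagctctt
Bnip3: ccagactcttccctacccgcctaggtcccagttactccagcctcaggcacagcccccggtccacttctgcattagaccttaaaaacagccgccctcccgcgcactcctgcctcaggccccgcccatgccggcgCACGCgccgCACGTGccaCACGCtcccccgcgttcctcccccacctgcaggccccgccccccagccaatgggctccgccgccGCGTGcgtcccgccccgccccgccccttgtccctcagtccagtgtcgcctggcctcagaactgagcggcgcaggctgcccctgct
Ldha: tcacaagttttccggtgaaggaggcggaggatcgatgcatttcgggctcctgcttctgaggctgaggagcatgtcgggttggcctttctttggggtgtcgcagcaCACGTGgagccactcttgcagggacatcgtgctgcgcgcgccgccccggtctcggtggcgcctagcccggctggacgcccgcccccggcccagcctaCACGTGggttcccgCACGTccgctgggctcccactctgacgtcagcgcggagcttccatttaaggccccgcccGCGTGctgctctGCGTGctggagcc
A match is only those letters in the window, and binding was not measured.

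Other genes of the same pathways were read from lists of which the 35 genes are no part, and by the test between the groups 0 genes of any of these 6 lists passed. In the fit with replicate 1 against 2 and 3 as a block, 4 other HIF targets and 3 other glycolysis genes were higher, and 2 genes each of the glycogen, HIF machinery and TCA cycle lists were lower, against 2.25% and 2.47% of all genes. Of 43 measured other HIF targets, 5 had an unadjusted p under 0.05 and were higher, 1 had it and was lower, against 10.2% and 5.44% of all genes, and the median difference was 0.18. Ero1a, an oxidase of the endoplasmic reticulum, was at 13.82, 13.89 and 13.85 in ionomycin and 13.31, 13.79 and 13.81 in naive arrays (0.22 ± 0.14, limma adjusted p = 0.445), and Cited2, a HIF-induced inhibitor of p300 binding, at 12.83, 12.56 and 12.63 in ionomycin and 12.30, 12.58 and 12.38 in naive arrays. On replicate 1, 32 of the 43 were below the mean of replicates 2 and 3 in the ionomycin group and 40 in the naive group. Of all 30102 genes, 17524 were below it in the ionomycin group and 19610 in the naive group. Of the 43, 7 were low by more than 1.5-fold in both groups (16.3%, against 0.635% of all genes). Those 7, named after their values were seen, were Narf, Pgm1, Kdm4b, Zfp395, Gys1, Vldlr and Bhlhe41. Vegfa, the angiogenic growth factor, chosen after its values were seen, was at 10.39, 10.97 and 10.96 in ionomycin and 8.97, 10.94 and 11.07 in naive arrays. Adm, the peptide adrenomedullin, chosen likewise, was at 8.23, 8.26 and 8.13 in ionomycin and 6.13, 8.41 and 8.20 in naive arrays, so that naive replicate 1 alone was low and near background.

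The other metabolic lists were read in the same way. Of 39 measured other glycolysis and pyruvate genes, 9 had an unadjusted p under 0.05 as higher and 1 as lower, against the same 10.2% and 5.44% of all genes, and none was more than 1.5-fold low in replicate 1 of both groups. Among them Bsg, the chaperone of lactate transporters, was at 12.28, 12.03 and 12.02 in ionomycin and 12.13, 12.07 and 11.92 in naive arrays, and Gpd2, the mitochondrial glycerol phosphate dehydrogenase, at 11.07, 10.58 and 10.59 in ionomycin and 10.72, 10.74 and 10.78 in naive arrays. In the pentose phosphate list 0 of 8 genes had an unadjusted p under 0.05. Taldo1, transaldolase, was at 10.24, 10.12 and 10.10 in ionomycin and 10.08, 10.44 and 10.36 in naive arrays, and Pgd at 10.21, 10.04 and 10.16 in ionomycin and 10.22, 10.38 and 10.18 in naive arrays. Of 23 glycogen genes 4 had an unadjusted p under 0.05, each as lower, against 5.44% of all genes, with Pygl, glycogen phosphorylase, at 10.42, 10.30 and 10.22 in ionomycin and 10.34, 10.78 and 10.46 in naive arrays and Pgm2 at 10.31, 10.36 and 10.43 in ionomycin and 10.15, 10.37 and 10.23 in naive arrays. These 4 brightest genes of the pentose phosphate and glycogen lists differed by under 0.6 between any 2 arrays. Pgm1 and Gys1 are in this list as well and were its only genes more than 1.5-fold low in replicate 1 of both groups. Ppp1r3b, a glycogen-targeting phosphatase subunit chosen after its values were seen, was at 9.08, 9.34 and 9.29 in ionomycin and 7.03, 9.35 and 9.44 in naive arrays.

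On replicate 1 the remaining HIF machinery lay on both sides of the other arrays. Of its 16 measured genes replicate 1 was below the mean of replicates 2 and 3 for 8 in the ionomycin group and 7 in the naive group. Of all 30102 genes it was below for 17524 in the ionomycin group and 19610 in the naive group. Os9 was at 11.00, 10.97 and 11.00 in ionomycin and 10.97, 11.11 and 11.04 in naive arrays. Elob, a subunit of the VHL ubiquitin ligase, was at 11.08, 10.87 and 10.78 in ionomycin and 11.03, 10.87 and 10.75 in naive arrays. The tricarboxylic acid (TCA) cycle genes ran the other way. Of 22 measured, replicate 1 was above the mean of replicates 2 and 3 for all 22 in the ionomycin group and for 21 in the naive group, with medians of 0.30 in ionomycin and 0.29 in naive arrays, the exception being Me1. Cs, citrate synthase, was at 11.88, 11.67 and 11.75 in ionomycin and 12.04, 11.88 and 11.76 in naive arrays, and Mdh2, the mitochondrial malate dehydrogenase, at 11.53, 11.25 and 11.30 in ionomycin and 11.30, 11.37 and 11.15 in naive arrays. Between the groups 2 of the 22 had an unadjusted p under 0.05, 1 in each direction, against 10.2% of all genes higher and 5.44% lower. In none of the 7 marker lists, mast cell, macrophage, neutrophil, dendritic, lymphocyte, erythroid and stromal, was a gene more than 1.5-fold low in replicate 1 of both groups. In the naive group alone, 1 mast cell marker was low by that margin (-0.86). The medians of these lists on replicate 1 against replicates 2 and 3 were between -0.19 and 0.04 in the ionomycin group and between -0.13 and 0.09 in the naive group.

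**Figure D4:**
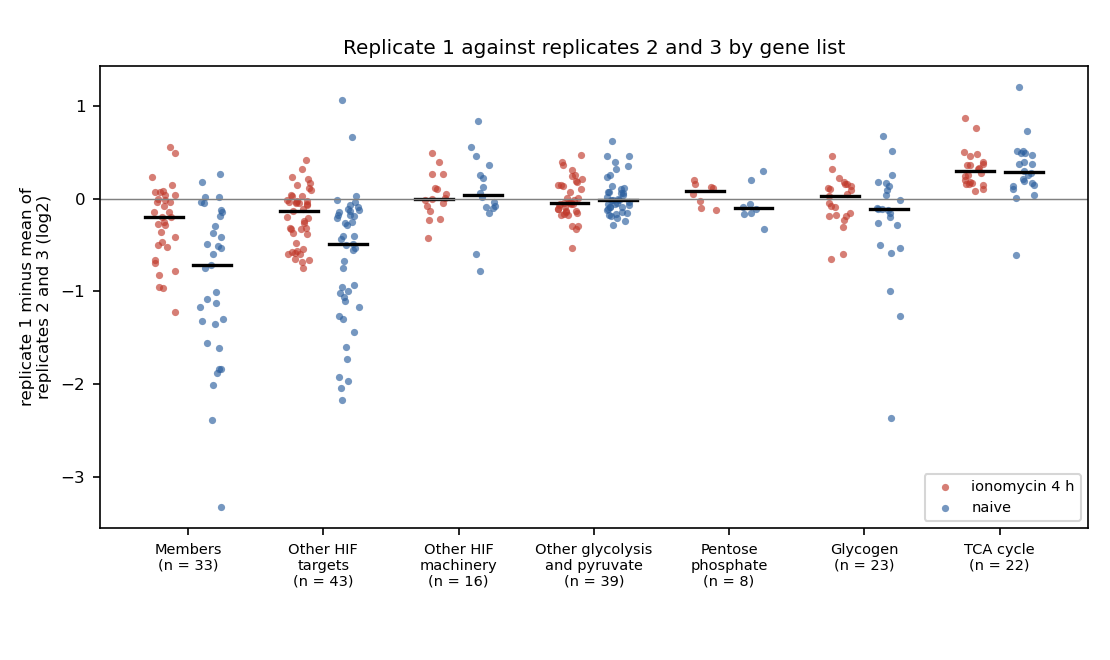
Replicate 1 minus the mean of replicates 2 and 3 in log2 signal (vertical axis) for each gene of 7 lists, in the ionomycin group (red, left) and the naive group (blue, right); points are genes and black bars are medians. The medians in ionomycin arrays are -0.20 for the 33 genes, -0.13 for other HIF targets and 0.30 for TCA cycle genes, and in naive arrays -0.71, -0.49 and 0.29 for the same lists.

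The absence of calls among the 33 genes held with the replicate number as a block, where 0.395% of all genes were higher and 0.11% lower, and in each of 6 fits without 1 array. It also held with a block that only set replicate 1 apart, where 2.25% of all genes were higher and 2.47% lower. Limma's array weights were 0.416, 3.44 and 1.17 for ionomycin replicates 1, 2 and 3. For naive replicates 1, 2 and 3 they were 0.245, 3.09 and 0.782. The weighted fit thus rested mostly on replicate 2 of each group. In it Epas1 was higher and Hk1, Pfkm, Aldoc and Ldha were lower, against 7.44% and 5.49% of all genes.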

How the data were processed

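Total RNA of 6 samples was measured on 6 arrays. The values used are log2 signals that the authors deposited; per the submitters' processing notes the tool oligo was used, and the sources used here do not give background correction, summarisation or scaling. The probe annotation came from GEO's platform table: of 65770 rows, 30439 named 1 gene symbol, 2146 several, and the rest none. For each of 30102 genes the brightest single-symbol row (6-array mean) was used, and 19200 genes were above background, the 95th percentile of 1752 chemosensory receptor genes.

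Ionomycin and naive arrays were compared per gene with limma 3.58.1 (lmFit and eBayes) in R 4.3.3, with Benjamini-Hochberg adjustment over all 30102 genes and a threshold of 0.05. The limma script was tested on simulated data with 200 changed genes. Replicate 1 was set against the mean of replicates 2 and 3 by subtraction, with no test. Same-numbered arrays deviated together from their group means (correlations 0.711, 0.476 and 0.469), and arrays 2 and 3 crossed did so likewise (0.481 and 0.524), so the replicate number was also fitted as a block. The labels do not say what a number marks, and depth does not apply to arrays, whose number limits the precision. The 35 genes, all lists and replicate 1 as the array set apart were chosen with earlier results of these data known. Every measured gene of the 35 is named, and from each pathway list the genes called, or else the 2 brightest. Other alternatives were normalisation, a filter on dim genes, array weights, the variance model, the row per gene and leaving out arrays. Rows naming several genes were left out.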

Additional observations from a re-analysis of the deposited data

How the results depend on the processing

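The limit of these data is 3 arrays a group with 1 of each far from the others. The count of 0 genes higher and 0 lower among the 33 held with the replicate block, quantile normalisation, centring, the filter on dim genes, the trend and robust setting, the mean of rows, all rows tested, the unmoderated statistic and each fit without 1 array. It did not hold with array weights (1 higher, 4 lower) or without both replicate 1 arrays (1 lower); the cause was not tested. Over all genes, against 87 higher and 18 lower, the replicate block gave 119 higher and 33 lower, the block of 2 levels 677 and 744, centring 32 lower, trend and robust 9 lower, array weights 2240 and 1654, the unmoderated statistic 0 and 0, and the fit without both replicate 1 arrays 423 and 429. The replicate block changed no call of the 33 genes. Fits without 1 array called 1 to 95 genes higher and 0 to 55 lower. With 2-fold in place of 1.5-fold, 1 gene (Egln3) was low in replicate 1 of both groups, in place of 7.

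None of the following differences passed the test. Their sign turned with quantile normalisation for Pfkl (0.016), Gapdh (0.0020) and Pkm (-0.014), and with centring for Pkm (-0.057) and Bnip3l (-0.021). Array weights turned Slc2a1 (-0.030), Slc16a3 (-0.052), Pfkp (-0.12), Tpi1 (-0.048), Pgk1 (-0.10), Pkm (-0.064) and Ankrd37 (-0.15). Without both replicate 1 arrays, Slc2a1 (-0.047), Pfkp (-0.12), Tpi1 (-0.029), Pgk1 (-0.048), Pkm (-0.035), Bnip3 (-0.022) and Ankrd37 (-0.26) turned. Over the fits without 1 array, differences ranged from -0.13 to 0.72 for Slc2a1, -0.23 to 0.49 for Slc16a3, -0.75 to 0.32 for Hk2, -0.26 to 0.18 for Pfkl, -0.18 to 0.35 for Pfkp, -0.28 to 0.015 for Aldoa, -0.041 to 0.25 for Tpi1, -0.022 to 0.23 for Pgk1, -0.027 to 0.29 for Pgam1, -0.65 to 0.29 for Eno2 and -0.019 to 0.045 for Pkm. They ranged from -0.082 to 0.87 for Pfkfb3, -0.39 to 0.054 for Pdk1, -0.059 to 0.23 for Hif1a, -0.47 to 0.29 for Egln1, -0.38 to 1.35 for Egln3, -0.28 to 0.64 for Bnip3, -0.0035 to 0.11 for Bnip3l, -0.35 to 0.87 for Ankrd37, -0.36 to 0.20 for P4ha1, -0.013 to 0.20 for Kdm3a and -0.029 to 0.80 for Ak4.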
